A study of Mus musculus with 6 samples.

Results

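Genes of amino acid supply and of the response to the transcription factor ATF4 were read from 6 mouse femur RNA-seq libraries. The 35 genes were chosen by function: ATF4 and its stress effectors, enzymes that make or interconvert amino acids, enzymes of folate one-carbon metabolism, and amino acid carriers of the plasma membrane. Of these, 34 had a row among the 22824 rows of each library, matched through Ensembl identifiers, and Slc7a5 was not analysed here. The values were FPKM, fragments scaled to transcript length and to the mapped fragments of the library, so levels can be set side by side between genes. A gene was tested if it reached 1 FPKM in at least 3 libraries, which 31 of the 34 did, against 12177 genes in all. Cth, Cbs and Slc7a11 did not.

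The OE group held 3 libraries from C57BL/6 mice carrying 9.6kb DMP1-Cre and R26-Wnt7b, described as homozygous, in which Cre under Dmp1 regulatory sequence switches on a Wnt7b allele at the R26 locus in mature osteoblasts and osteocytes. Ctrl comprised 3 libraries of littermates with R26-Wnt7b and no Cre. All samples were femurs described as cleared of cartilage and marrow, and no age is stated. Whether each library came from its own animal is not stated, so p-values measure only the spread between these samples, which may be in part technical.

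ATF4 is the transcription factor of the integrated stress response. Kinases that sense missing amino acids, unfolded protein, haem shortage or viral RNA phosphorylate the initiation factor eIF2, general translation falls, and the Atf4 message is translated more, so its mRNA level is a poor guide to its activity. ATF4, paired with C/EBP proteins, then switches on genes that make or import amino acids and charge tRNAs. In osteoblasts ATF4 is known for its part in collagen synthesis, which consumes much glycine and proline, and WNT signalling is known to raise glutamine use in that lineage.

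Wnt7b stood at 2.49, 0.661 and 0.295 FPKM in OE 1, 2 and 3, against 0.909 FPKM for the library labelled Ctrl 1, 0.00833 for Ctrl 2 and a listed 0 for Ctrl 3. Wnt7b in the library labelled Ctrl 1 was therefore between OE 1 and OE 2 (difference 0.65, SE 0.44, in log2(FPKM + 1), exact two-sided permutation p = 0.3, where 0.1 is the smallest that 3 against 3 allow), which goes against its label. That library may be mislabelled and its values may belong with OE, which was not tested, so each comparison of OE with all 3 Ctrl libraries carries that doubt. Summed over 10 osteoblast genes without the collagen pair, levels ran from 3222 to 5900 FPKM in OE. They were 4726 for the library labelled Ctrl 1, 417 for Ctrl 2 and 345 for Ctrl 3. The collagen pair, Col1a1 and Col1a2, has a listed 0 in both OE 1 and the library labelled Ctrl 1. The sums of 12 neutrophil genes, 61439 to 172166 FPKM in OE and 107540 to 148194 in Ctrl, show that the marrow lineage was abundant in femurs labelled as free of it. Erythroid genes summed to 45392 FPKM in OE 3, against 1400.5 and 2368 in OE 1 and OE 2 and 1742 to 10054 in Ctrl. B-cell genes summed to 531 FPKM in OE 3, while the remaining 5 libraries ran from 59.9 to 125. Cartilage and muscle genes followed the osteoblast genes, with cartilage sums of 274 to 574 FPKM in OE, 354 for the library labelled Ctrl 1, 16.4 for Ctrl 2 and 22.2 for Ctrl 3. Muscle sums were 1313 to 1698 FPKM in OE, 1509 for the library labelled Ctrl 1, 235 for Ctrl 2 and 350.4 for Ctrl 3. No gene of the neutrophil, erythroid, B-cell, cartilage or muscle lists that had a row was at 0. Absolute depth is unknown. Judged by the step size of low values, the deepest library had 1.18 times the depth of the shallowest.

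The element that ATF4 and its C/EBP partners bind, in the form TGATGNAA, was looked for on both strands of RefSeq promoter windows (GRCm38.p6, 250 bases before to 50 after the start). Windows were held for 31 of the 35 genes, and 9 of these, or 29.0%, had a match, against 4.51% of the 27025 symbols in the table. For the form TGATGCAA the shares were 22.6% and 1.03%. The genes were chosen in part as the ATF4 response, so these shares are not a test of the list. A match is a description of letters, not a shown binding site. They are printed because ATF4 and its partners are known for acting through this element, so that each gene with a match can be set beside its levels. Each stretch is 5′ to 3′ on the gene's strand with the match in capitals, and TTGCATCA and TTACATCA are matches read on the other strand.
Nupr1, chr7:126625557-126625596, minus strand: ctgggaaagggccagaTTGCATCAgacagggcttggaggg
Pycr1, chr11:120643828-120643867, minus strand: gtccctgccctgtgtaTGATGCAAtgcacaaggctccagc
Slc1a4, chr11:20332694-20332733, minus strand: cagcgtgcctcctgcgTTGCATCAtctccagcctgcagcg
Trib3, chr2:152344023-152344062, minus strand: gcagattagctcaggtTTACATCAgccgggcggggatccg
Asns, chr6:7693209-7693248, minus strand: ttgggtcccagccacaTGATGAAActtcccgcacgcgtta
Chac1, chr2:119351033-119351072, plus strand: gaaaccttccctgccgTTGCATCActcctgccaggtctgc
Got1, chr19:43524684-43524723, minus strand: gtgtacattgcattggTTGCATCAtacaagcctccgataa
Slc7a11, chr3:50443637-50443695, minus strand: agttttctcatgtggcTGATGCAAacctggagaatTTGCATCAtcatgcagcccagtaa
Slc7a7, chr14:54417922-54417961, minus strand: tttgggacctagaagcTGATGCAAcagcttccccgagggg
In Asns the match begins 23 bases before the start, in Nupr1 110, in Pycr1 103, in Slc1a4 4, and in Trib3 it begins 15 bases after it. Slc7a11 holds a pair of matches that begin 66 and 47 bases before its start, in opposite orientation. In Slc7a7 the printed match begins 1 base before the start of 1 window and 243 bases before that of another. A second match, TGATGAAA, begins 141 bases before the former start. Among the 8 matched genes that were tested, all OE values lay above both Ctrl 2 and Ctrl 3 in 3 (Nupr1, Pycr1 and Slc1a4), below both in 3 (Trib3, Asns and Chac1) and overlapped them in 2 (Got1 and Slc7a7). Over all genes tested, 18.3% lay above both and 18.6% below both.

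None of the genes passed the test with all 6 libraries. Most had a negative difference, among them all 4 for asparagine and serine and all 5 one-carbon enzymes. Nupr1 and Pycr1 were higher in every OE library than in Ctrl 2 and Ctrl 3, with the library labelled Ctrl 1 within the OE range. OE lay above Ctrl 2 and Ctrl 3 in this way in 4 of the 31, against 18.3% of all genes. The difference in log2(FPKM + 1) was negative in 24 of 31 and positive in 7, with a median of -0.20, against a median of -0.04 over all genes tested, of which 56.3% were negative. Under trimmed-mean scaling 21 were negative and 10 positive, and with scaling without marrow and muscle genes 20 and 11. None of the 31 passed an adjusted p of 0.05 by limma (smallest adjusted p = 0.554), nor did any of the 12177 genes, a background of 0%. Before adjustment, p was under 0.05 for 0 of the 31 in the higher and 7 in the lower direction, where the shares of all genes were 4.12% and 4.08%. Over all genes that was 999, and without a variance trend limma gave 996 genes and 6 of the 31, again with none after adjustment. The 7 became 5 under either scaling, 4 without OE 1, 3 without Ctrl 3, 1 without Ctrl 2 and 13 without the library labelled Ctrl 1, where all genes gave 163 without Ctrl 2 and 2069 without the library labelled Ctrl 1. All OE values lay below all Ctrl values in 7 of the 31, against 8.97% of all genes, and above them in 0, against 4.59%. These 7 were Trib3, Sesn2, Asns, Shmt1, Shmt2, Prodh and Got2.

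**Figure D1:**
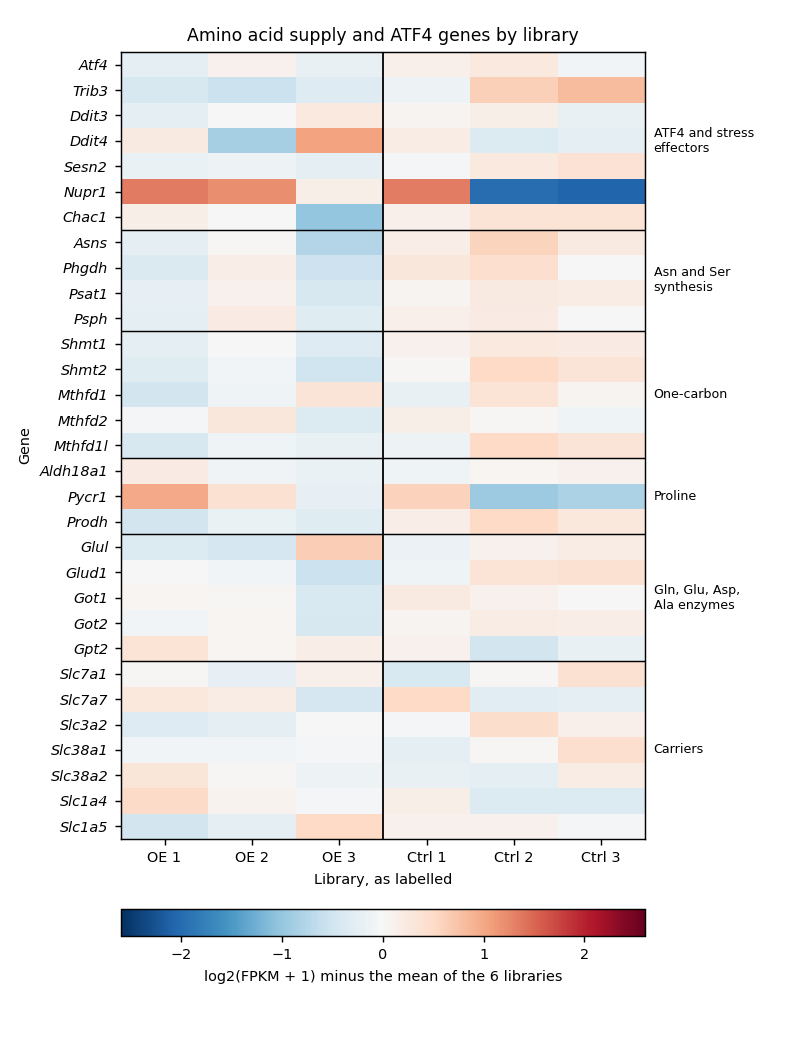
Level of the 31 tested genes in each library, as log2(FPKM + 1) minus the gene's mean over the 6 libraries (colour; red higher, blue lower), with genes in rows by step and the OE libraries left of the Ctrl libraries. Nupr1 and Pycr1 are above their means in OE 1, OE 2 and the library labelled Ctrl 1 and below in Ctrl 2 and Ctrl 3, while Asns, Shmt2 and Prodh are below theirs in OE 1 and OE 3 and above in all Ctrl libraries.

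The libraries did not share the low values evenly. OE 3 held the lowest value of 14 of the 31 genes, and of 28.2% of all genes tested, and Ctrl 2 held the highest of 12, and of 22.4% of all genes. The library labelled Ctrl 1 lay within the OE range in 17 of the 31, above it in 11 and below it in 3, where the shares of all genes were 50.8%, 28.0% and 21.2%. Levels spanned 0.899 to 222 FPKM, and the highest library exceeded the lowest by 1.35 times in Aldh18a1 and by 11.2 times in Nupr1, with a median of 1.94. Without the library labelled Ctrl 1, limma called 2 of the 31, Nupr1 higher and Trib3 lower in OE, while it called 4.25% of all genes higher and 0.649% lower. In that 5-library comparison all OE values lay below both remaining Ctrl values in 13 of the 31 (18.6% of all genes) and above both in 4 (18.3%), which were Nupr1, Pycr1, Gpt2 and Slc1a4. With OE 3 left out as well limma called 3 of the 31, adding Pycr1, and 1388 of all 12177 genes.

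**Figure D2:**
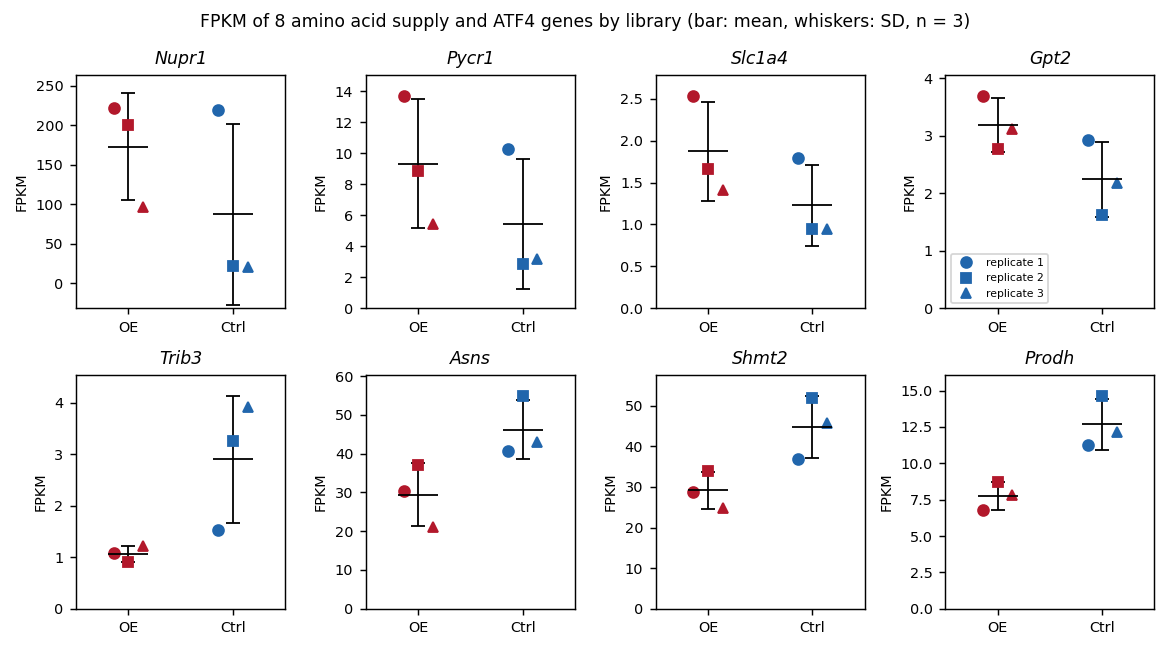
FPKM in each library for 4 genes whose OE values all exceed Ctrl 2 and Ctrl 3 (upper row) and 4 whose OE values all lie below every Ctrl value (lower row). Points are libraries with the replicate number as shape, bars are group means and whiskers are SD (n = 3). In the upper row the circle of the library labelled Ctrl 1 lies among the OE points, at 219.7 FPKM for Nupr1 against 21.2 and 19.9 in Ctrl 2 and Ctrl 3.

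Atf4 itself was abundant and differed little. It stood at 96.4, 122 and 99.6 FPKM across OE 1 to 3, against 124 FPKM for the library labelled Ctrl 1, 135 for Ctrl 2 and 108 for Ctrl 3. The groups overlapped, at a difference of -0.20 (SE 0.17). Trib3, a pseudokinase that ATF4 induces and that dampens ATF4 in turn, was low everywhere, at 1.08, 0.899 and 1.21 FPKM across OE 1 to 3, against 1.53 FPKM for the library labelled Ctrl 1, 3.25 for Ctrl 2 and 3.91 for Ctrl 3. All OE values lay below all Ctrl values, with the library labelled Ctrl 1 closer to OE than to the other Ctrl libraries. The difference was -0.87 (SE 0.27, limma adjusted p = 0.554), and -1.15 (SE 0.18, limma adjusted p = 0.0201) without the library labelled Ctrl 1, lower in 3 of 3 OE libraries. That adjusted p was 0.0319 with trimmed-mean scaling and 0.00678 with OE 3 left out too. The library labelled Ctrl 1 held the lowest Ctrl value and OE 3 the highest OE value, so leaving both out could only widen the difference. On the log2(FPKM + 1) scale the change of so low a gene is understated. Sesn2, a leucine-sensing inhibitor of mTORC1, averaged 7.34 ± 0.355 FPKM over OE and 9.95 ± 1.61 over Ctrl (SD, n = 3). Its OE values, 6.94 to 7.62 FPKM, lay below its Ctrl values, 8.18 to 11.3, at a difference of -0.38 (SE 0.15).

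Nupr1, a small chromatin protein induced by stress, stood at 222, 200.1 and 96.1 FPKM across OE 1 to 3, against 219.7 FPKM for the library labelled Ctrl 1, 21.2 for Ctrl 2 and 19.9 for Ctrl 3. The library labelled Ctrl 1 matched OE 1, while Ctrl 2 and Ctrl 3 lay below every OE library. The difference was 1.80 (SE 0.91, limma adjusted p = 0.560) with all 6 libraries and 2.92 (SE 0.37, limma adjusted p = 0.0116) without the library labelled Ctrl 1, higher in 3 of 3 OE libraries. That adjusted p was 0.0137 with trimmed-mean scaling and 2.83e-04 with OE 3 left out too. The library labelled Ctrl 1 held the highest Ctrl value and OE 3 the lowest OE value, so leaving both out could only widen the difference. Bglap, the osteocalcin gene of osteoblasts, also had its lowest values in Ctrl 2 and Ctrl 3, at 2711, 3254 and 1891 FPKM across OE 1 to 3, 2552 for the library labelled Ctrl 1, 91.8 for Ctrl 2 and 58.8 for Ctrl 3. The part of osteoblast, cartilage and muscle RNA in the value of Nupr1 was not tested, and in bulk samples fewer cells of a type and less RNA per cell cannot be told apart. Set against Atf4 in the same library, Nupr1 had a ratio of 2.31, 1.64 and 0.965 across OE 1 to 3, 1.78 for the library labelled Ctrl 1, 0.157 for Ctrl 2 and 0.185 for Ctrl 3.

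The remaining stress effectors overlapped between groups. Chac1, which degrades glutathione, stood at 6.09, 5.36 and 2.19 FPKM across OE 1 to 3, against 6.03 FPKM for the library labelled Ctrl 1, 7.21 for Ctrl 2 and 7.16 for Ctrl 3, at a difference of -0.57 (SE 0.31) that was -0.21 without OE 3. Ddit3, which encodes the stress factor CHOP, averaged 19.2 ± 3.51 FPKM over OE and 19.3 ± 2.54 over Ctrl (SD, n = 3). Ddit4, an inhibitor of mTORC1 known as REDD1, ranged from 25.1 FPKM in OE 2 to 97.0 in OE 3, wider than the 35.9 to 53.4 of Ctrl. Its difference of 0.28 (SE 0.46) turned to -0.18 without OE 3.

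Every gene of asparagine and serine synthesis had a negative difference, at a median of -0.42 over 4 genes, and in each alternative run. Asns, asparagine synthetase and a standard readout of ATF4, stood at 30.3, 37.1 and 21.1 FPKM across OE 1 to 3, against 40.8 FPKM for the library labelled Ctrl 1, 54.9 for Ctrl 2 and 43.0 for Ctrl 3. The groups did not overlap, OE 3 was lowest and Ctrl 2 highest, and the difference was -0.65 (SE 0.23, limma adjusted p = 0.554). Phgdh, Psat1 and Psph, which in order turn 3-phosphoglycerate into serine, were lower on average as well. Phgdh averaged 45.3 ± 12.6 FPKM over OE and 63.3 ± 9.77 over Ctrl, Psat1 27.8 ± 5.48 and 35.02 ± 2.17, and Psph 9.58 ± 2.26 and 11.3 ± 0.864 (SD, n = 3). Their differences were -0.50 (SE 0.23), -0.34 (SE 0.17) and -0.24 (SE 0.18). OE 2 exceeded at least 1 Ctrl library in all 3, so the groups overlapped.

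One-carbon enzymes, which carry units from serine to purines, thymidylate and methionine, had a median difference of -0.38 over 5 genes. Shmt2, the mitochondrial serine hydroxymethyltransferase, stood at 28.7, 34.0 and 24.9 FPKM across OE 1 to 3, against 36.8 FPKM for the library labelled Ctrl 1, 51.8 for Ctrl 2 and 45.8 for Ctrl 3. All OE values lay below all Ctrl values, at a difference of -0.60 (SE 0.19, limma adjusted p = 0.554). Shmt1, its cytosolic counterpart, was also lower without overlap, at 5.51 to 7.23 FPKM in OE and 7.84 to 8.80 in Ctrl (difference -0.38, SE 0.14). Shmt2 exceeded Shmt1 per length by 4.77, 4.70 and 4.52 times across OE 1 to 3 and by 4.69 times for the library labelled Ctrl 1, 5.89 for Ctrl 2 and 5.32 for Ctrl 3. Mthfd1l, the mitochondrial formate-releasing enzyme, stood at 10.8, 13.7 and 12.8 FPKM across OE 1 to 3, against 13.4 FPKM for the library labelled Ctrl 1, 21.7 for Ctrl 2 and 18.9 for Ctrl 3. Only the library labelled Ctrl 1 overlapped OE, and the difference was -0.49 (SE 0.20).

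Mthfd2, the mitochondrial dehydrogenase and cyclohydrolase of dividing cells, did not follow them. It averaged 29.1 ± 6.79 FPKM over OE and 29.8 ± 2.92 over Ctrl (SD, n = 3), and its difference of -0.05 (SE 0.19) turned to 0.038 with scaling without marrow and muscle genes. Mthfd1, the cytosolic trifunctional enzyme, ran from 11.1 FPKM in OE 1 to 20.1 in OE 3 and from 13.7 to 20.5 in Ctrl, at a difference of -0.16 (SE 0.24).

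Within the proline genes, synthesis and breakdown stood on opposite sides. Pycr1, which makes proline in mitochondria and is needed for collagen, stood at 13.7, 8.84 and 5.46 FPKM across OE 1 to 3, against 10.3 FPKM for the library labelled Ctrl 1, 2.88 for Ctrl 2 and 3.19 for Ctrl 3. Ctrl 2 and Ctrl 3 lay below every OE library and the library labelled Ctrl 1 within them, as for Nupr1. The difference was 0.79 (SE 0.48, limma adjusted p = 0.578), and 1.28 (SE 0.33, limma adjusted p = 0.103) without the library labelled Ctrl 1, which did not pass. Without the libraries labelled Ctrl 1 and OE 3 it was 1.58 (SE 0.22, limma adjusted p = 0.00560), higher in 2 of 2 OE libraries. Those 2 libraries held its highest Ctrl and lowest OE value, so their removal could only widen the difference.

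Prodh, the first enzyme of proline breakdown, stood at 6.80, 8.69 and 7.80 FPKM across OE 1 to 3, against 11.3 FPKM for the library labelled Ctrl 1, 14.6 for Ctrl 2 and 12.1 for Ctrl 3. Its groups did not overlap, its OE values averaged 7.76 ± 0.948 FPKM and its Ctrl values 12.7 ± 1.74 (SD, n = 3). With a difference of -0.64 (SE 0.16), Prodh had the smallest unadjusted p of the 31 genes (limma adjusted p = 0.554). The ratio of Pycr1 to Prodh was 2.02, 1.02 and 0.700 across OE 1 to 3, 0.909 for the library labelled Ctrl 1, 0.197 for Ctrl 2 and 0.263 for Ctrl 3. Aldh18a1, which catalyses the first step from glutamate to proline, was the steadiest of the 31 genes, at 12.7 to 17.2 FPKM in OE and 13.5 to 15.7 in Ctrl.

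Enzymes of glutamine, glutamate, aspartate and alanine had a median difference of -0.22 over 5 genes, and Gpt2 alone was positive. Glul, glutamine synthetase, stood at 68.7, 65.0 and 139 FPKM across OE 1 to 3, against 80.0 FPKM for the library labelled Ctrl 1, 95.7 for Ctrl 2 and 101 for Ctrl 3, with OE 3 far above the other OE libraries, at a difference of -0.10 (SE 0.31). In OE 3 the erythroid gene Hbb-bs also stood at 20218 FPKM, against 571 and 969.5 in OE 1 and OE 2, and the part of erythroid or B-cell RNA in Glul was not tested. Glud1, glutamate dehydrogenase, averaged 105 ± 20.9 FPKM over OE and 141 ± 25.4 over Ctrl (SD, n = 3), at a difference of -0.43 (SE 0.22). The library labelled Ctrl 1, at 112 FPKM, lay within OE.

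Of the aspartate aminotransferases, Got2, in mitochondria, stood at 69.2, 75.2 and 54.6 FPKM across OE 1 to 3, against 76.8 FPKM for the library labelled Ctrl 1, 83.4 for Ctrl 2 and 81.7 for Ctrl 3, without overlap, at a difference of -0.29 (SE 0.16). Got1, in the cytosol, stood at 17.8 to 24.7 FPKM in OE and 23.6 to 28.2 in Ctrl, with overlap. Gpt2, the mitochondrial alanine aminotransferase, stood at 3.70, 2.77 and 3.12 FPKM across OE 1 to 3, against 2.93 FPKM for the library labelled Ctrl 1, 1.62 for Ctrl 2 and 2.19 for Ctrl 3, at a difference of 0.38 (SE 0.20). As in the osteoblast sums, Ctrl 2 and Ctrl 3 were lowest.

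Transsulfuration, which makes cysteine from homocysteine, was barely detected. Cth reached 0.269 FPKM at most and Cbs 0.171, so neither was tested. Slc7a11, which imports cystine, was also low and untested, at 0.668, 0.686 and 0.691 FPKM across OE 1 to 3, against 0.436 FPKM for the library labelled Ctrl 1, 0.682 for Ctrl 2 and 1.101 for Ctrl 3.

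The tested carriers had a median difference of -0.03 over 7 genes, 4 of them negative. Slc3a2, the heavy chain CD98 that brings several light-chain carriers to the membrane, stood at 30.4, 33.2 and 38.8 FPKM across OE 1 to 3, against 38.1 FPKM for the library labelled Ctrl 1, 54.2 for Ctrl 2 and 42.9 for Ctrl 3. The library labelled Ctrl 1 overlapped OE 3, and the difference was -0.38 (SE 0.18). Slc1a4, a carrier of alanine, serine and cysteine, stood at 2.53, 1.66 and 1.41 FPKM across OE 1 to 3, against 1.79 FPKM for the library labelled Ctrl 1, 0.950 for Ctrl 2 and 0.949 for Ctrl 3. Its difference was 0.37 (SE 0.23), with Ctrl 2 and Ctrl 3 again lowest. Slc1a5, the related glutamine carrier ASCT2, was far more abundant and stood at 41.1, 48.9 and 83.3 FPKM across OE 1 to 3, against 62.8 FPKM for the library labelled Ctrl 1, 62.9 for Ctrl 2 and 56.1 for Ctrl 3. OE 3, the library high in erythroid and B-cell genes, held its highest value, and the difference of -0.13 (SE 0.26) turned to 0.077 without OE 1.

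The other carriers overlapped between groups. Slc38a2, the amino acid-responsive SNAT2, averaged 54.4 ± 8.52 FPKM over OE and 49.0 ± 8.60 over Ctrl, and Slc38a1, the glutamine carrier SNAT1, 13.4 ± 0.125 and 15.1 ± 3.98 (SD, n = 3). Slc7a1, which imports arginine and lysine, averaged 7.71 ± 1.07 FPKM over OE and 8.08 ± 2.47 over Ctrl (SD, n = 3). Slc7a7, a light chain that exports these amino acids, stood at 13.7, 12.9 and 7.95 FPKM across OE 1 to 3, against 16.4 FPKM for the library labelled Ctrl 1, 8.98 for Ctrl 2 and 9.25 for Ctrl 3. OE 3 lay apart from the other OE libraries here, below both Ctrl 2 and Ctrl 3.

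**Figure D3:**
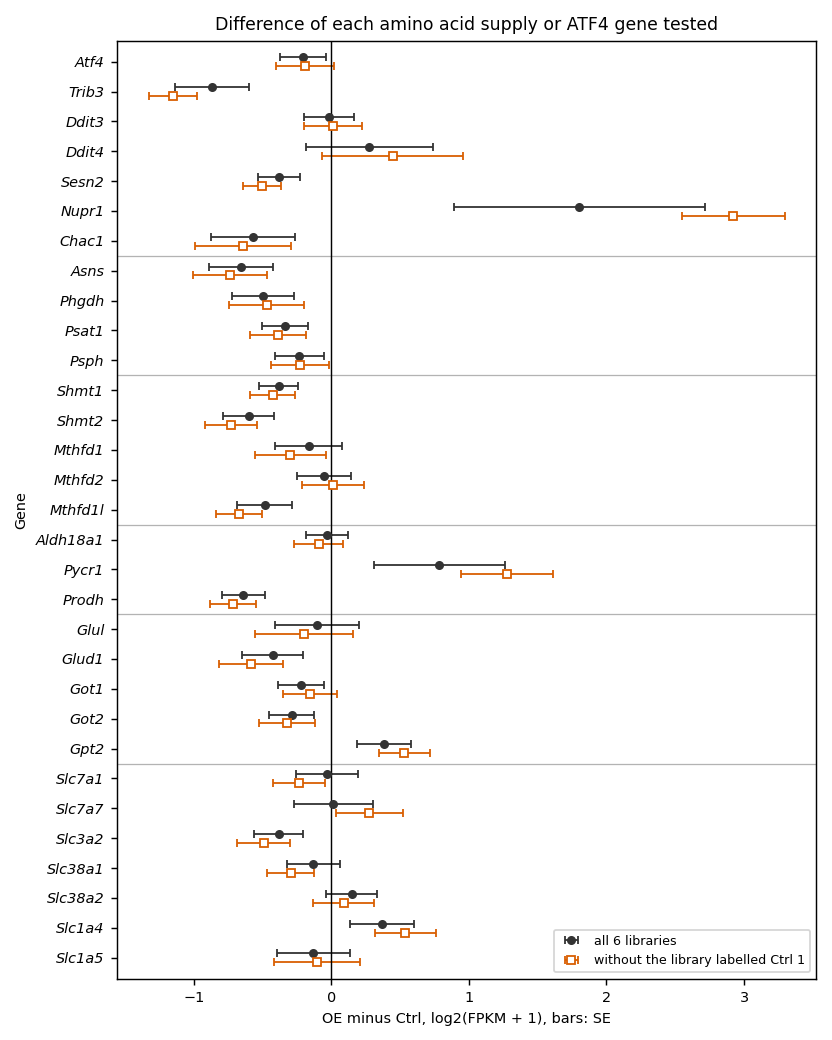
Difference between OE and Ctrl in log2(FPKM + 1) for each of the 31 tested genes, grouped by step, with all 6 libraries (filled circles) and without the library labelled Ctrl 1 (open squares); bars are SE. Leaving that library out gives 2.92 in place of 1.80 for Nupr1, 1.28 in place of 0.79 for Pycr1 and -1.15 in place of -0.87 for Trib3.

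Further genes of the pathway were listed by function. The 20 cytosolic aminoacyl-tRNA synthetases, which load amino acids onto tRNAs and many of which ATF4 induces, were negative in 19, with a median of -0.23, and none passed (smallest limma adjusted p = 0.554). Before adjustment, p was under 0.05 for 1, Aars, and in 6 of the 20 all OE values lay below all Ctrl values. The shares of all genes were 4.08% and 8.97%. Aars, for alanine, averaged 23.5 ± 1.82 FPKM over OE and 30.3 ± 1.83 over Ctrl (SD, n = 3), at a difference of -0.35 (SE 0.13). Nars, for asparagine, averaged 59.0 ± 8.78 FPKM over OE and 75.2 ± 7.08 over Ctrl (SD, n = 3), also without overlap. Lars, for leucine, and Farsa, for phenylalanine, differed by -0.39 (SE 0.18) and -0.35 (SE 0.18) with overlap. With scaling without marrow and muscle genes 17 of the 20 were negative and the median was -0.13.

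The neutrophil markers had a negative difference in 12 of 12 genes, at a median of -0.62, though OE 2 held their highest sum. Mpo, their myeloperoxidase, stood at 2123, 2906 and 1311 FPKM across OE 1 to 3, against 3591 FPKM for the library labelled Ctrl 1, 3941 for Ctrl 2 and 3388 for Ctrl 3. The part of neutrophil RNA in the lower values of Asns, Shmt2 and the synthetases was not tested.

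The stress response arm, with the eIF2 kinases, eIF2B subunits and partner factors, was negative in 15 of 23 genes tested, at a median of -0.09, and none passed. Cebpb, a C/EBP partner of ATF4 that neutrophil precursors also use, stood at 99.8, 129.99 and 100.01 FPKM across OE 1 to 3, against 193 FPKM for the library labelled Ctrl 1, 199 for Ctrl 2 and 162 for Ctrl 3. Its groups did not overlap, and the difference was -0.75 (SE 0.18, limma adjusted p = 0.554). Vldlr, a lipoprotein receptor, stood at 10.4, 4.77 and 5.25 FPKM across OE 1 to 3, against 4.01 FPKM for the library labelled Ctrl 1, 1.43 for Ctrl 2 and 1.98 for Ctrl 3. Its groups did not overlap in the opposite sense, at a difference of 1.17 (SE 0.36). Sesn3, a relative of Sesn2, was likewise higher without overlap (difference 0.67, SE 0.26). Eif2b2, a subunit of the eIF2 exchange factor, differed by -0.37 (SE 0.17) with overlap.

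Other enzymes of glutamine, folate and methionine were negative in 13 of 25 tested, at a median of -0.06. None passed with all 6 libraries. Ahcy, which clears S-adenosylhomocysteine, averaged 22.7 ± 2.38 FPKM over OE and 34.5 ± 5.69 over Ctrl (SD, n = 3), and Ass1, argininosuccinate synthase, 24.8 ± 5.05 and 35.4 ± 2.94, both without overlap. Their differences were -0.58 (SE 0.16) and -0.51 (SE 0.17). Asl, the next enzyme, differed by -0.41 (SE 0.19) with overlap. Aldh1l2, a mitochondrial folate dehydrogenase, stood at 8.95, 3.62 and 2.595 FPKM across OE 1 to 3, against 3.15 FPKM for the library labelled Ctrl 1, 0.136 for Ctrl 2 and 0.329 for Ctrl 3. As for Nupr1 and Pycr1, Ctrl 2 and Ctrl 3 were lowest, at a difference of 1.57 (SE 0.58). Without the library labelled Ctrl 1 it was 2.16 (SE 0.43, limma adjusted p = 0.0436), which passed. That library held the highest Ctrl value of Aldh1l2, so leaving it out could only widen the difference. Sardh, sarcosine dehydrogenase, was named after its values were seen. Sardh also passed without the library labelled Ctrl 1 (difference 1.152, limma adjusted p = 0.0173) and not with all 6 libraries (0.74, limma adjusted p = 0.554). Its highest Ctrl value was likewise in the library left out, at 4.08 FPKM against 1.21 in Ctrl 2 and 1.07 in Ctrl 3. Mat2a was listed at 0 in every library.

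Other amino acid carriers were positive in 11 of 18 tested, at a median of 0.04, and none passed with all 6 libraries. Slc38a3, a glutamine carrier, stood at 2.23, 1.63 and 1.40 FPKM across OE 1 to 3, against 1.35 FPKM for the library labelled Ctrl 1, 0.340 for Ctrl 2 and 0.476 for Ctrl 3. Its groups did not overlap, at a difference of 0.71 (SE 0.26), with the library labelled Ctrl 1 next to OE 3. Slc38a4, its relative, stood at 2.52, 1.70 and 1.22 FPKM across OE 1 to 3, against 1.55 FPKM for the library labelled Ctrl 1, 0.0772 for Ctrl 2 and 0.200 for Ctrl 3. Ctrl 2 and Ctrl 3 were again lowest, and the difference was 0.89 (SE 0.37). Without the library labelled Ctrl 1 it was 1.28 (SE 0.25, limma adjusted p = 0.0401), which passed. As that library held the highest Ctrl value of Slc38a4, leaving it out could only widen the difference. Slc25a12, the mitochondrial aspartate and glutamate carrier, differed by -0.29 (SE 0.16), and Slc7a6 by 0.23 (SE 0.15).

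**Figure D4:**
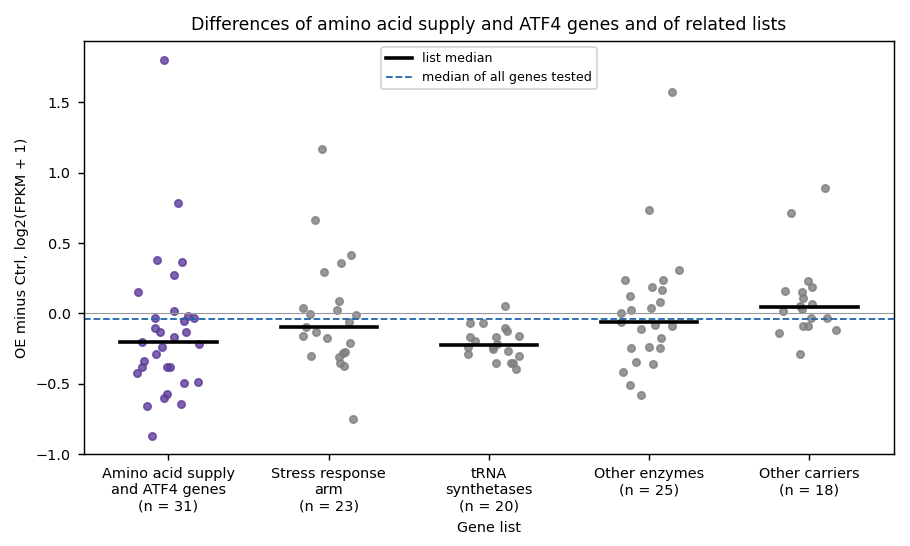
Difference between OE and Ctrl in log2(FPKM + 1) for the 31 tested genes of amino acid supply and the ATF4 response (left) and for 4 related lists, each point a gene, with list medians (black bars) and the median of all 12177 genes tested (dashed line). The synthetases lie within a narrow range below the dashed line for the most part, at a median of -0.23, while the other lists spread to both sides.

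Of the 34 genes with a row, 6 overlap another protein-coding gene in GENCODE M21 (Ddit3, Shmt1, Shmt2, Prodh, Glul and Slc7a7), and no strand setting is given in the sources used here, so reads of the partners cannot be told apart. Phgdh and Got2 have a named pseudogene that could share reads.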

How the data were processed

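RNA-seq was compared between 3 OE and 3 Ctrl femur libraries, grouped and numbered by the sample titles. The authors deposited FPKM per gene, 1 library per file, per the file headers; the submitters' processing notes name mm10 and DESeq, Cufflinks and TopHat2, without roles or versions. Of 22824 rows, 21606 carry an Ensembl identifier and 21172 matched a symbol (GENCODE M21, GRCm38). FPKM is scaled to each library's fragments, so the most abundant genes depress the rest, and an exact 0 can be a failed estimate. FPKM totals ran from 596413 to 775942. From these values log2(FPKM + 1) was modelled over all 12177 genes that reached 1 FPKM in 3 or more libraries, with limma 3.58.1 (trend) in R 4.3.3, OE minus Ctrl, Benjamini-Hochberg adjusted over all of them at 0.05, after the step was tested on simulated data. Differences on this scale understate changes of low genes. Alternatives were other filters (none, 5 FPKM), a pseudocount of 0.1, no trend, 2 scalings, the replicate number as a block, and libraries left out; the trimmed-mean fit that leaves out the library labelled Ctrl 1 was added after seeing the data. The genes and lists were chosen with earlier results of these data known. Named are all listed genes of the set, Wnt7b, marker examples, and the 4 genes of smallest p in each related list; Sardh and Mat2a were named after their values were seen. Python 3.11.15 with pandas 2.3.3, scipy 1.17.1 and matplotlib 3.10.9 made tables and plots.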

Additional observations from a re-analysis of the deposited data

How the results depend on the processing

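No gene passed with all 6 libraries under any filter, pseudocount, trend or scaling tried, or with the replicate block. Which calls were made turned on the library labelled Ctrl 1: leaving out 1 library at a time gave 0 to 597 genes called overall and 0 to 2 of the 31, and only its removal gave any. Leaving out OE 3 as well gave 1388 and 3, and the trimmed-mean fit that leaves out the library labelled Ctrl 1 gave 506 and 2. Whether replicate numbers pair the libraries is not settled by these values. Same-numbered deviations correlated at 0.442, 0.0866 and 0.311, and different-numbered ones ran from -0.620 to 0.416. The highest of the latter was Ctrl 2 with OE 3, above Ctrl 2 with OE 2. With the number as a block, limma called 0 genes (smallest adjusted p = 0.191), with an unadjusted p under 0.05 in 1797 genes and 10 of the 31. The median over the 31 was -0.11 with scaling without marrow and muscle genes, -0.29 without the libraries labelled Ctrl 1 and OE 3, and -0.29 to -0.15 with 1 library left out. For glutamine, glutamate, aspartate and alanine enzymes it was -0.17 with trimmed-mean scaling, -0.16 with that scaling without the library labelled Ctrl 1, -0.13 with scaling without marrow and muscle genes, and -0.30 to -0.16 with 1 library left out. For carriers it was 0.054 with scaling without marrow and muscle genes, -0.30 without the libraries labelled Ctrl 1 and OE 3, and -0.11 to 0.054 with 1 library left out. Single genes near 0 changed sign. With trimmed-mean scaling Ddit3 had 0.031, Aldh18a1 0.016 and Slc7a1 0.013. With scaling without marrow and muscle genes Ddit3 had 0.075, Mthfd2 0.038, Aldh18a1 0.059 and Slc7a1 0.054. Without the libraries labelled Ctrl 1 and OE 3, Ddit4 had -0.0092 and Mthfd2 0.17, and in the trimmed-mean fit that leaves out the library labelled Ctrl 1, Ddit3 had 0.055 and Mthfd2 0.055. With 1 library left out, Ddit3 ran from -0.14 to 0.11, Ddit4 from -0.18 to 0.78, Mthfd1 from -0.37 to 0.030, Mthfd2 from -0.22 to 0.11, Aldh18a1 from -0.15 to 0.052, Glul from -0.45 to 0.092, Slc7a1 from -0.24 to 0.16, Slc7a7 from -0.13 to 0.28, Slc38a1 from -0.30 to 0.054 and Slc1a5 from -0.42 to 0.077. The causes were not tested. Transsulfuration has no tested gene and so no median. Without counts, low genes such as Trib3 carry an unknown counting error.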
